A study of Mus musculus with 12 samples.

Results

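The autophagy core genes are 35 mouse genes whose products build the autophagosome, load it with cargo or switch on its genes. They are a list of names given by textbook function, with no threshold on measured values, though earlier results of these data were known when it was drawn up, and all 35 were listed among the 15803 transcripts that had a read in at least 1 library, with 1 representative transcript for each gene. They fall into 8 roles: the ULK1 kinase complex (Ulk1, Ulk2, Rb1cc1, Atg13 and Atg101), the class III PI3-kinase complexes and their regulators (Pik3c3, Becn1, Atg14, Uvrag and Ambra1), the lipid transfer proteins, scramblase and PI3P effectors (Atg9a, Atg2a, Atg2b, Wipi1 and Wipi2), the conjugation machinery (Atg12, Atg5, Atg7, Atg3, Atg16l1 and Atg16l2), the ATG8 proteins (Map1lc3a, Map1lc3b, Gabarap, Gabarapl1 and Gabarapl2), the ATG4 proteases (Atg4a, Atg4b, Atg4c and Atg4d), the cargo receptors (Sqstm1, Nbr1, Optn and Tax1bp1) and the transcription factor Tfeb.

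The genes were measured in KPC cells, a pancreatic ductal adenocarcinoma (PDAC) line from mice that carry Trp53LSL-R172H and Pdx1-Cre among their alleles. All groups share this genotype, in which the recombinase Cre, driven by the pancreatic promoter of Pdx1, switches on mutant p53. Cells received 20 μM cisplatin (Cis), a platinum drug that cross-links DNA, for 6 h or 21 h, or PBS, and the same PBS libraries were the control for both times. The labels call the control libraries untreated and do not say how long they were kept with PBS. Each group had 2 ribosome profiling libraries, which count the mRNA fragments protected by ribosomes (footprints), and 2 RNA-seq libraries, 12 libraries in all, and the study says in general that experiments were repeated or used independent samples, without saying so of these libraries in particular, so p-values may measure no more than the technical spread between these libraries.

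Footprint libraries held 3375480 to 5204127 reads and RNA-seq libraries 1985344 to 2901692, of which 862476 to 1341584 remained without Lars2, Tmem38b and Mettl26, which took 51.8% to 56.6% of the RNA-seq reads. The epithelial markers Krt7, Krt8, Krt18, Krt19, Epcam and Cdh1 all had footprints in every group, though Epcam rested on 1 to 9 reads per library. The summed level of these markers was 9101 to 9781 RPKM (reads scaled by coding length and library total) with PBS, 9298 to 9356 RPKM at 6 h and 6697 to 6838 RPKM at 21 h. From PBS to 21 h, mean footprint RPKM went from 4749 to 3238 for Krt8 and from 2883 to 1662 for Krt19. Only Krt18 had a higher mean at 21 h (1762, beside 1645 with PBS). Summed over the lists, immune markers lay at 1.87 to 2.35 RPKM with PBS and 3.57 to 9.68 RPKM at 21 h, with Cd3e at 0 in all libraries, fibroblast markers at 3.41 to 9.54 RPKM in all footprint libraries, and endothelial markers at 0.666 RPKM or less. Of the 4 acinar markers, Prss1, Cpa1 and Amy2a were at 0 in all libraries, and Cela1 had 1.69 to 3.23 footprint RPKM with PBS, 2.67 to 3.34 at 6 h and 6.10 to 6.12 at 21 h (7 to 18 reads). The part of these marker shifts in the results below was not tested, and in bulk lysates fewer cells of a type and less RNA per cell cannot be told apart.

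Autophagy starts when the ULK1 kinase complex is released from inhibition by mTORC1 and activates the lipid kinase VPS34 (Pik3c3), whose product PI3P recruits WIPI proteins to a growing membrane. ATG2 proteins feed lipid into that membrane and the scramblase ATG9A spreads it over both leaflets. ATG7 and ATG3 then attach ATG8 proteins (the LC3 and GABARAP families) to the membrane, with the ATG12-ATG5-ATG16L1 complex as the ligase, while ATG4 proteases process ATG8 proteins and free them again. Cargo receptors such as p62 (Sqstm1) bind ubiquitinated cargo and ATG8 proteins together, and are degraded with the cargo when the autophagosome fuses with a lysosome. TFEB switches on autophagy and lysosomal genes from E-box sequences, and pancreatic tumours are known for high basal autophagy.

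Because the list holds Tfeb and several of the genes it is known to regulate, the promoters were searched for the core E-box, whose letters are CACGTG and read the same on both strands. RefSeq promoters on GRCm38.p6, from 250 bases before to 50 bases after the start, were found for 29 of the 35 genes (35 promoters), and not for Rb1cc1, Pik3c3, Becn1, Atg12, Atg16l1 and Map1lc3a. The E-box was present in 4 of the 35 promoters (11.4%), those of Atg7, Atg5, Atg3 and Atg14, beside 7.15% of all 32851 promoters. The sites are shown with the letters of the motif in capitals, because Atg7 fell and Atg14 rose in footprints, while Atg5 and Atg3 passed in no comparison.
Atg7 promoter, chr6:114670952-114670981, + strand: catattggtggtCACGTGtgcagtaagtga
Atg5 promoter, chr10:44268313-44268342, + strand: cggagcgcttgcCACGTGgtcttggtgacg
Atg3 promoter, upstream site, chr16:45158723-45158752, + strand: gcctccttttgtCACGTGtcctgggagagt
Atg3 promoter, downstream site, chr16:45158746-45158775, + strand: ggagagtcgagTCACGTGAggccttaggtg
Atg14 promoter, chr14:47568418-47568447, - strand: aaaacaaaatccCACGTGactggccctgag
The site began 132 bases before the start in Atg7, 14 bases before it in Atg5 and 94 and 71 bases before it in Atg3, and in Atg14 it lay across the start. The downstream site of Atg3 was the only one with the flanked form TCACGTGA, capitalised in full above, which contains the core E-box and was in 0.974% of all promoters.

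An antioxidant response element, the site of NRF2, was searched on both strands by the letters TGACNNNGC, since Sqstm1 is a known target of that factor. It was present in 4 of the 35 promoters (11.4%), those of Atg13, Tax1bp1, Map1lc3b and Ulk2, and in 12.4% of all promoters, and the letters were not in the Sqstm1 window. The C/EBP-ATF composite TGATGCAA (0.895% of all promoters) and the AP-1 site TGACTCA (5.20%) were in none of the 29 genes. A match of letters is no evidence of binding, and the windows are short.

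In cells with PBS the 35 genes lay between 0 and 1822 footprint RPKM. Gabarap, an ATG8 protein, was the highest, at 1822 and 1644 RPKM in the 2 libraries. Sqstm1, the receptor p62, followed at 451 and 505 RPKM. Gabarapl2, a further ATG8 protein, had 246 and 235 RPKM. The 3 were clearly separated from one another and from Tax1bp1, a receptor for ubiquitinated cargo, at 126 and 127 RPKM.

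Gabarapl1 and Wipi2 came next, with libraries at 107 and 92.3 RPKM and at 90.25 and 87.9 RPKM that did not overlap but lay close. At the low end were Ulk1 (2.79 and 1.83 RPKM), the kinase that starts the pathway, and the ATG16 paralog Atg16l2 (2.57 and 1.61 RPKM), which overlapped. Ulk2, a paralog of Ulk1, had 0.436 to 1.10 RPKM over the 6 footprint libraries and the protease Atg4a had 0 to 1.45 RPKM, so both fell under the filter of a mean of 1 RPKM and were not tested for footprints. In RNA-seq, where RPKM is per kilobase of transcript, Atg16l2 (4 to 13 reads) and Atg4a (1 to 5 reads) fell under the filter.

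Map1lc3b, which encodes LC3B, the protein most used to follow autophagosomes, had 0 footprint reads in all 6 libraries, on a representative transcript with a coding length of 519 nt. A count of 0 allows up to 3 reads in each library. The other ATG8 genes, with coding lengths of 351 to 363 nt, had 34 to 3328 footprint reads per library. RNA-seq gave Map1lc3b 3 to 12 reads per library and no change past the threshold (log2 fold change 0.24 ± 0.35 SE at 21 h). The level of Map1lc3b can therefore not be taken from these values, and it stayed out of the footprint tests. The study followed LC3B protein by immunoblot in KPC cells with cisplatin, and reported no significant change in autophagy induction. Footprints and RNA do not measure autophagy itself.

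Set against RNA, Gabarap also stood high. Its ratio of footprint RPKM to RNA RPKM with PBS was 22.1, higher than for 98.96% of all transcripts tested in both assays. The ratio was 9.95 for Atg12, the ubiquitin-like protein joined to ATG5, and 9.93 for Gabarapl2, both near the 93.0th percentile. It was 1.10 for Ulk1 (7.50th percentile) and 1.56 for Atg9a (14.8th percentile). These ratios compare a level per coding length with a level per transcript length and are given as a description.

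**Figure D1:**
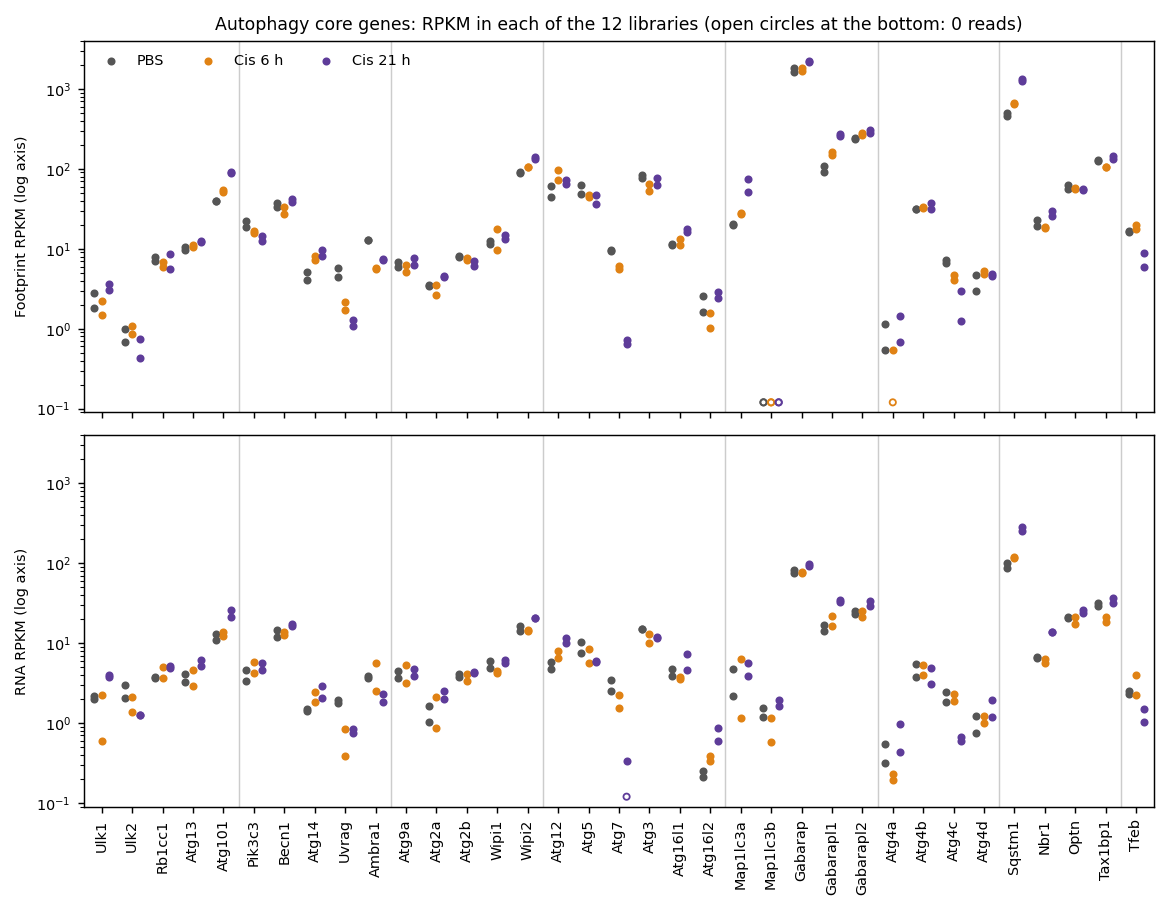
Footprint RPKM (top, log axis) and RNA RPKM (bottom, log axis) of the 35 autophagy core genes, ordered by role with grey lines between roles, in each PBS (grey), 6 h (orange) and 21 h (purple) library, with open circles for libraries at 0 reads. Gabarap and Sqstm1 are the highest genes, Map1lc3b has no footprint read, and Atg7 drops from above 9 to below 1 footprint RPKM at 21 h.

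At 21 h, footprints of the autophagy core genes moved in both directions. Of the 32 genes tested, 9 rose (28.1%, beside 18.9% of all 10383 transcripts tested) and 6 fell (18.8%, beside 20.2% of all), by limma with Benjamini-Hochberg adjustment over all transcripts and a threshold of 0.05. The share that fell was near that of all transcripts. The median change was 0.21 on the log2 scale (0.01 over all transcripts), and 21 of the 32 changes were above 0. All fold changes here are of scaled RPKM + 0.5, which understates the change of low genes.

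All 4 tested ATG8 genes, the receptor Sqstm1 and Atg101 of the ULK1 complex were among those that rose, and Atg7, Uvrag, Atg4c, Tfeb, Ambra1 and Pik3c3 were those that fell. At 6 h only 3 genes passed: Gabarapl1 and Sqstm1 rose and Ambra1 fell (3 of 32, beside 2.04% of all transcripts in either direction), while 12 (37.5%) had an unadjusted p under 0.05, beside 21.4% of all transcripts. These 3 calls at 6 h were lost when any 1 of the 4 PBS and 6 h libraries was left out. From 6 h to 21 h, 8 genes rose (15.0% of all transcripts rose) and 3 fell (15.7% of all fell).

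In RNA-seq at 21 h, 5 of 33 genes rose (15.2%, beside 11.6% of all 9443 transcripts) and 2 fell (6.06%, beside 12.2%). At 6 h, limma called 0 of 33 genes and 0% of all transcripts, with 4 genes (12.1%) at an unadjusted p under 0.05, near the 11.5% of all transcripts. Voom on the recovered reads called 1 higher (0.604% of all) and 1 lower (1.82% of all). Between 6 h and 21 h, RNA of 5 genes rose (7.53% of all rose) and that of 3 fell (8.21% of all fell). Of the 34 genes tested in at least 1 comparison, 18 passed the threshold in at least 1 (52.9%), near the 50.1% of all 10531 such transcripts. With the untested Atg4a, 17 of the 35 genes passed in none. Of those 17, 13 were tested in both assays: Ulk1, Rb1cc1, Atg13, Becn1, Atg9a, Atg2a, Atg2b, Wipi1, Atg5, Atg3, Atg4b, Atg4d and Optn.

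**Figure D2:**
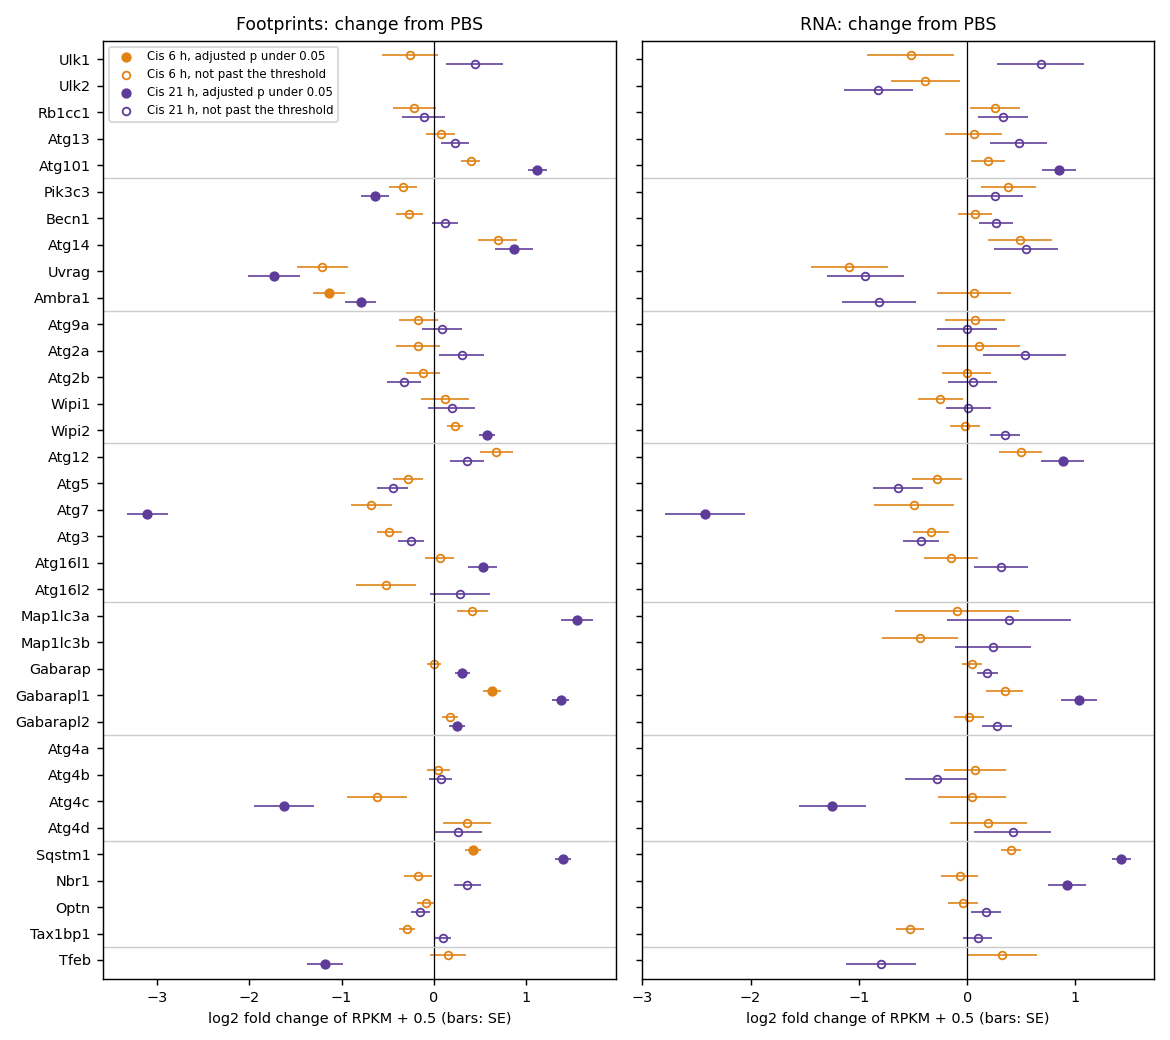
Log2 fold change of RPKM + 0.5 from PBS for footprints (left) and RNA (right), with bars of 1 SE, for each autophagy core gene in order of role, at 6 h (orange) and 21 h (purple). Filled points have an adjusted p under 0.05, and genes under the filter have no point. At 21 h, 9 footprint points to the right of 0 and 6 to the left are filled.

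The ULK1 kinase complex had 1 gene that changed. Atg101, which stabilises ATG13 in the complex, had 39.96 and 39.4 footprint RPKM with PBS, 54.8 and 51.2 at 6 h and 90.8 and 87.6 at 21 h. Its 3 groups did not overlap, and the rise at 21 h was 1.12 ± 0.10 on the log2 scale (SE, n = 2 against 2, limma adjusted p = 0.000102). RNA of Atg101 was 10.9 and 13.0 RPKM with PBS and 21.0 and 25.6 RPKM at 21 h, a rise of 0.85 ± 0.16 (limma adjusted p = 0.00499). Both calls held with each library left out.

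The other 3 tested genes of the complex did not pass. The kinase Ulk1 had a footprint change of 0.44 ± 0.31 at 21 h, the scaffold Rb1cc1 (FIP200) one of -0.11 ± 0.23 and Atg13 one of 0.23 ± 0.16. Ulk2 was tested in RNA alone and had a change of -0.82 ± 0.32 at 21 h (limma adjusted p = 0.0905).

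The class III PI3-kinase group was split. Pik3c3, the catalytic subunit VPS34, fell in footprints from 22.02 and 18.9 RPKM with PBS to 12.3 and 14.3 RPKM at 21 h, with 15.8 and 16.7 RPKM at 6 h. The change at 21 h was -0.63 ± 0.15 (limma adjusted p = 0.0107), and without PBS library 1 it was -0.55 with an adjusted p of 0.0737. Of the genes called in footprints at 21 h, Pik3c3 was the only one whose RNA estimate had the opposite sign, at 0.26 ± 0.25 (3.37 and 4.55 RNA RPKM with PBS, 5.67 and 4.55 at 21 h), and its change in translation efficiency (TE, footprints relative to RNA) was -0.90 ± 0.30 with a limma adjusted p of 0.245.

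The 2 adaptors that direct VPS34 to different complexes went apart. Atg14, which takes the kinase to the site where autophagosomes form, had 4.04 and 5.09 footprint RPKM with PBS, 8.23 and 7.23 at 6 h and 9.74 and 8.15 at 21 h. Its rise at 21 h was 0.87 ± 0.21 (limma adjusted p = 0.0114), and was not past the threshold without PBS library 1 (0.70, adjusted p = 0.0779) or without 21 h library 1 (0.76, adjusted p = 0.0524). RNA of Atg14 was 1.42 and 1.48 RPKM with PBS, 2.43 and 1.86 at 6 h and 2.07 and 2.95 at 21 h. The RNA values rested on 13 to 23 reads per library and did not pass. Uvrag, whose complex acts on endosomes and on autophagosome maturation, had 5.69 and 4.41 footprint RPKM with PBS, 2.14 and 1.70 at 6 h and 1.30 and 1.09 at 21 h, which rest on 43 to 62 reads with PBS and 8 to 10 reads at 21 h. Every treated library of Uvrag lay below both PBS libraries, with a footprint change of -1.21 ± 0.28 at 6 h (limma adjusted p = 0.0637). Its fall at 21 h was -1.73 ± 0.28 (limma adjusted p = 0.00174) in footprints beside -0.94 ± 0.36 (adjusted p = 0.0871) in RNA. RNA of Uvrag was 1.97 and 1.80 RPKM with PBS, 0.391 and 0.840 at 6 h and 0.833 and 0.742 at 21 h. These rest on 25 and 27 reads with PBS and 4 to 10 reads in treated libraries.

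Ambra1, which binds Beclin 1 and helps to start autophagy, fell in footprints at both times. It had 12.7 and 12.9 footprint RPKM with PBS, 5.68 and 5.545 at 6 h and 7.23 and 7.49 at 21 h. The change was -1.13 ± 0.17 at 6 h (limma adjusted p = 0.0285) and -0.79 ± 0.17 at 21 h (adjusted p = 0.00677). The 6 h call was lost without any 1 of the 4 libraries compared (-1.17 to -1.11, adjusted p = 0.112 to 0.180), and the 21 h call without PBS library 2 (-0.77, adjusted p = 0.05002). RNA of Ambra1 was 5.71 and 2.50 RPKM at 6 h, on both sides of the PBS values of 3.90 and 3.71 RPKM, and 2.31 and 1.84 RPKM at 21 h (-0.81 ± 0.34, adjusted p = 0.117). Becn1 (Beclin 1), the scaffold of both complexes, had a footprint change of 0.12 ± 0.14 at 21 h.

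Among the lipid transfer proteins, scramblase and PI3P effectors, 1 of 5 passed. Wipi2, the PI3P reader that brings ATG16L1 to the membrane, had 90.25 and 87.9 footprint RPKM with PBS, 106 and 105 at 6 h and 131 and 142 at 21 h. The rise at 21 h was 0.57 ± 0.09 (limma adjusted p = 0.00139), and from 6 h to 21 h it was 0.34 ± 0.09 (adjusted p = 0.0205). The later step was not past the threshold without either 6 h library (0.35 and 0.34, adjusted p = 0.0956 and 0.111) or without 21 h library 2 (0.28, adjusted p = 0.0909). RNA of Wipi2 was 14.2 and 16.3 RPKM with PBS and 20.7 and 20.8 RPKM at 21 h (0.35 ± 0.14, adjusted p = 0.0991). Atg9a, Atg2a, Atg2b and Wipi1 had footprint changes between -0.32 and 0.30 at 21 h.

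The conjugation machinery held the largest change of the 35 genes. Atg7, the E1-like enzyme that activates both ATG12 and the ATG8 proteins, had 9.595 and 9.46 footprint RPKM with PBS, 5.56 and 6.13 at 6 h and 0.732 and 0.644 at 21 h. These values are 111 and 98 reads with PBS, 58 and 46 reads at 6 h and 6 and 5 reads at 21 h. The groups were far apart, with a change of -3.10 ± 0.23 at 21 h (limma adjusted p = 4.08e-05) and -2.43 ± 0.23 from 6 h to 21 h (adjusted p = 0.000248).

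RNA of Atg7 was 2.50 and 3.45 RPKM with PBS (24 and 39 reads), 1.55 and 2.22 at 6 h and 0.331 and 0 at 21 h (3 and 0 reads). By reads per library total, RNA of Atg7 was 17.3-fold lower at 21 h, with an exact 95% interval of 5.66 to 86.2 that covers counting error only. The fitted change was -2.42 ± 0.37 (limma adjusted p = 0.00189). The TE difference of Atg7 was not past the threshold (-0.68 with a 95% interval of -1.57 to 0.20, adjusted p = 0.527), and its sign turned with the setting, to 0.24 with a pseudocount of 0.1 and 0.67 with voom.

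The other conjugation genes moved less. Atg16l1, which places the ligase on the membrane, had 11.3 and 11.5 footprint RPKM with PBS, 13.1 and 11.1 at 6 h and 17.85 and 16.4 at 21 h (0.53 ± 0.16 at 21 h, limma adjusted p = 0.0267). That call was lost without PBS library 1 (0.50, adjusted p = 0.111), PBS library 2 (0.56, adjusted p = 0.0863) or 21 h library 1 (0.48, adjusted p = 0.0886). RNA of Atg16l1 was 3.93 and 4.78 RPKM with PBS and 4.57 and 7.40 RPKM at 21 h, so the groups overlapped.

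Atg12 passed in RNA alone. Its RNA was 4.69 and 5.86 RPKM with PBS, 6.55 and 8.00 at 6 h and 10.001 and 11.4 at 21 h, a rise of 0.88 ± 0.20 at 21 h (limma adjusted p = 0.0109) that was not past the threshold without PBS library 1 (0.75, adjusted p = 0.0812) or 21 h library 2 (0.83, adjusted p = 0.0620). Its footprints were 44.1 and 60.9 RPKM with PBS, 73.1 and 96.7 at 6 h and 71.8 and 65.0 at 21 h, all treated libraries above both PBS libraries, with 0.68 ± 0.18 at 6 h (adjusted p = 0.0933) and 0.36 ± 0.18 at 21 h (adjusted p = 0.152). Atg12 footprints and RNA were not shown to differ in response, with a TE difference of -0.52 at 21 h (95% interval -1.11 to 0.07, adjusted p = 0.460).

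Atg5, Atg3 and Atg16l2 did not pass in any comparison. Atg5, the partner of ATG12, had footprint and RNA changes of -0.45 ± 0.16 and -0.64 ± 0.23 at 21 h (limma adjusted p = 0.0591 and 0.0745). Atg3, the E2-like enzyme for ATG8 proteins, had -0.25 ± 0.14 and -0.43 ± 0.17. Among the 4 genes with an E-box shown above, Atg7 fell, Atg14 rose in footprints and Atg5 and Atg3 did not pass.

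All 4 tested ATG8 genes rose in footprints at 21 h, by 0.25 to 1.55 on the log2 scale. Of all transcripts 18.9% rose, and of those up to 50 kb in span, as all 4 genes are, 24.5% rose. The smallest 2 changes, of Gabarapl2 and Gabarap, were dependent on the fit. Map1lc3a (LC3A) had 20.6 and 20.1 footprint RPKM with PBS, 27.6 and 27.7 at 6 h and 51.6 and 74.9 at 21 h. Its rise of 1.55 ± 0.17 (limma adjusted p = 0.000277) was the largest of the 32 genes tested, and without 21 h library 2 it was 1.29, below those of Sqstm1 and Gabarapl1 (1.37 and 1.35 without that library). RNA of Map1lc3a rested on 3 to 14 reads per library, and its groups overlapped at every time (4.75 and 2.17 RPKM with PBS, 6.34 and 1.17 at 6 h, 3.86 and 5.59 at 21 h). The RNA change of 0.38 ± 0.57 and the TE difference of 1.17, with a 95% interval of -0.39 to 2.72, do not resolve whether mRNA and footprints differed in response.

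Gabarapl1, an ATG8 protein often raised by stress, rose in both assays. It had 107 and 92.3 footprint RPKM with PBS, 162 and 150 at 6 h and 260 and 271 at 21 h, with no overlap between groups. The rise was 0.63 ± 0.09 at 6 h (limma adjusted p = 0.0285) and 1.37 ± 0.09 at 21 h (adjusted p = 3.14e-05). The 6 h call was lost with any 1 of the 4 libraries left out (0.54 to 0.71, adjusted p = 0.0571 to 0.1704), and the 21 h call was kept with each library left out.

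RNA of Gabarapl1 was 16.7 and 14.01 RPKM with PBS, 21.6 and 16.2 at 6 h and 32.6 and 35.0 at 21 h. The rise at 21 h was 1.03 ± 0.17 (limma adjusted p = 0.00250). The TE difference was 0.34 (95% interval -0.09 to 0.78, adjusted p = 0.514).

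Gabarap and Gabarapl2 had smaller changes at much higher levels. Gabarap was at 1819 and 1686 footprint RPKM at 6 h and 2252 and 2149 RPKM at 21 h, both of the latter above the PBS values of 1822 and 1644 RPKM. The rise at 21 h was 0.31 ± 0.08 (limma adjusted p = 0.0140) and 0.25 without PBS library 2 (adjusted p = 0.0579). It was not past the threshold without the variance trend (adjusted p = 0.0852). RNA of Gabarap was 75.8 and 81.4 RPKM with PBS and 97.9 and 91.7 RPKM at 21 h, a change of 0.19 ± 0.10 (adjusted p = 0.189).

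Gabarapl2 had 266 and 283 footprint RPKM at 6 h and 280 and 309 RPKM at 21 h, beside 246 and 235 RPKM with PBS. Its change at 21 h, 0.25 ± 0.09 (limma adjusted p = 0.0442), was close to the threshold and not past it with any 1 library left out other than 21 h library 1 (0.19 to 0.27, adjusted p = 0.0770 to 0.178). It was also lost with no filter, quantile normalization, no variance trend, only the groups compared and voom (0.17 to 0.25, adjusted p = 0.0546 to 0.167). RNA of Gabarapl2 was 25.4 and 23.0 RPKM with PBS and 28.9 and 33.7 RPKM at 21 h (0.28 ± 0.14, adjusted p = 0.180).

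**Figure D3:**
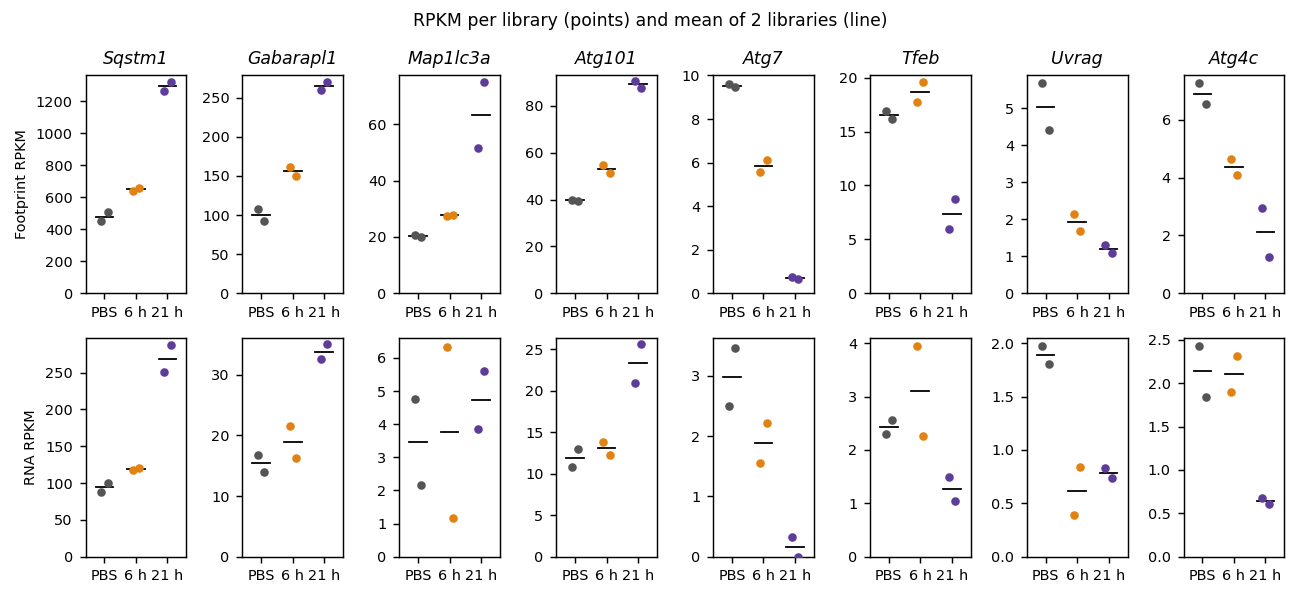
RPKM per library (points) and the mean of 2 libraries (line) for footprints (top) and RNA (bottom) of the 4 genes with the largest footprint rises at 21 h (Sqstm1, Gabarapl1, Map1lc3a and Atg101) and the 4 with the largest falls (Atg7, Tfeb, Uvrag and Atg4c), with PBS, 6 h and 21 h on the horizontal axis. Sqstm1 goes from 451 and 505 to 1263 and 1322 footprint RPKM, and the Map1lc3a RNA points of the 3 groups overlap.

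Of the ATG4 proteases, which cleave ATG8 precursors, Atg4c changed. It had 7.27 and 6.56 footprint RPKM with PBS, 4.65 and 4.10 at 6 h and 2.96 and 1.25 at 21 h, from 42 to 52 reads with PBS and 6 to 15 reads at 21 h. The fall at 21 h was -1.62 ± 0.32 (limma adjusted p = 0.00486). RNA of Atg4c was 2.43 and 1.84 RPKM with PBS, 1.90 and 2.32 at 6 h and 0.675 and 0.602 at 21 h, the latter from 5 and 4 reads. The RNA change of -1.25 ± 0.31 (adjusted p = 0.0177) was lost with any 1 of the 4 PBS and 21 h libraries left out (-1.42 to -1.08, adjusted p = 0.0510 to 0.133), and the footprint call between 6 h and 21 h, -1.0 ± 0.32 (adjusted p = 0.0462), was lost with any library left out other than 21 h library 1 (-1.08 to -0.51, adjusted p = 0.0796 to 0.183). Atg4b and Atg4d, the other tested proteases, had footprint changes of 0.08 ± 0.12 and 0.26 ± 0.26 at 21 h.

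Sqstm1 had the lowest adjusted p among the cargo receptors. Its protein, p62, also binds the NRF2 inhibitor KEAP1. Footprints were 451 and 505 RPKM with PBS, 640 and 658 at 6 h and 1263 and 1322 at 21 h. The groups did not overlap, and the rise was 0.43 ± 0.09 at 6 h (limma adjusted p = 0.0471) and 1.40 ± 0.09 at 21 h (adjusted p = 1.82e-05). The 6 h call was lost with any 1 of the 4 libraries compared left out (0.32 to 0.52, adjusted p = 0.0633 to 0.259).

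RNA of Sqstm1 followed the same order, with 87.7 and 101 RPKM with PBS, 118 and 120 at 6 h and 251 and 287 at 21 h. The RNA rise at 21 h was 1.42 ± 0.09 (limma adjusted p = 2.95e-05). The TE difference was -0.03, with a 95% interval of -0.30 to 0.25.

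Nbr1, a receptor related to p62, rose in RNA from 6.70 and 6.55 RPKM with PBS, with 6.31 and 5.70 at 6 h, to 13.9 and 13.7 RPKM at 21 h (0.92 ± 0.17, limma adjusted p = 0.00507). Its footprints were 19.1 and 22.7 RPKM with PBS, 18.3 and 18.9 at 6 h and 29.6 and 25.8 at 21 h (0.36 ± 0.15 at 21 h, adjusted p = 0.0824). The step from 6 h to 21 h passed in footprints (0.54 ± 0.15, adjusted p = 0.0259), though not without either 6 h library or 21 h library 1 (0.44 to 0.56, adjusted p = 0.0947 to 0.110). The TE difference of Nbr1 at 21 h was -0.56 with an adjusted p of 0.321.

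Tax1bp1, which like p62 brings ubiquitinated cargo to ATG8 proteins, rose from 6 h to 21 h. It had 126 and 127 footprint RPKM with PBS, 104 and 105 at 6 h and 144 and 134 at 21 h, and 31.7 and 29.1, 18.6 and 21.4, and 31.9 and 37.1 RNA RPKM in the same order. The changes at 6 h, -0.29 ± 0.09 in footprints and -0.53 ± 0.13 in RNA, did not pass (limma adjusted p = 0.109 and 0.255). The step from 6 h to 21 h passed in both assays (0.39 ± 0.09, adjusted p = 0.0112, and 0.62 ± 0.13, adjusted p = 0.0134). In footprints it was lost without either 6 h library or 21 h library 1 (0.34 to 0.39, adjusted p = 0.0505 to 0.0705) and in RNA without 6 h library 1 or 21 h library 2 (0.53 and 0.55, adjusted p = 0.0717 and 0.0796).

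Optn (optineurin), a receptor for mitochondria and bacteria, did not pass in any comparison. Its footprints were 63.1 and 56.1 RPKM with PBS, 57.9 and 55.5 at 6 h and 54.7 and 55.4 at 21 h. Its RNA was 20.5 and 21.2 RPKM with PBS, 21.4 and 17.6 at 6 h and 24.1 and 25.8 at 21 h.

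Tfeb fell late. It had 16.9 and 16.2 footprint RPKM with PBS, 17.7 and 19.6 at 6 h and 5.93 and 8.76 at 21 h. Both 21 h libraries lay below all 4 others, and the fall was -1.18 ± 0.20 from PBS (limma adjusted p = 0.00201) and -1.33 ± 0.20 from 6 h (adjusted p = 0.00190). RNA of Tfeb, from 5 to 18 reads per library, was 2.30 and 2.55 RPKM with PBS, 3.95 and 2.26 at 6 h and 1.496 and 1.04 at 21 h. The RNA change was -0.79 ± 0.32 from PBS (adjusted p = 0.105) and -1.11 ± 0.32 from 6 h (adjusted p = 0.0444), and the latter was lost with any 1 library left out other than 6 h library 2 (-1.32 to -0.77, adjusted p = 0.0692 to 0.233).

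Footprint and RNA calls at 21 h overlapped in part. Of the 15 genes called in footprints and the 7 called in RNA, 5 were called in both in the same direction: Sqstm1, Gabarapl1 and Atg101 rose and Atg7 and Atg4c fell. This is 33.3% of the footprint calls and 71.4% of the RNA calls, beside 41.8% and 75.6% over all transcripts. Of the 15 genes called in footprints, 14 (93.3%) had an RNA estimate of the same sign, beside 92.3% over all transcripts. The TE test, which asks whether footprints and RNA responded differently, gave 0 calls among 31 genes at 6 h (0% of 9295 transcripts) and 0 at 21 h (0.409% of all), with 2 genes (6.45%) at an unadjusted p under 0.05 at each time, beside 7.64% of all transcripts at 6 h and 12.7% at 21 h, so no gene of the list was shown to change in TE.

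The called genes divided by genomic span. Span, the distance from the start to the end of a gene, was taken from RefSeq on GRCm38.p6 as a length only. Of the 10 tested genes above 50 kb, 6 fell in footprints at 21 h and 0 rose, with a median change of -0.71. Among all 2637 transcripts above 50 kb, 51.2% fell and only 2.31% rose (median -0.58). The 6 were Uvrag (254 kb), Atg7 (217 kb), Ambra1 (189 kb), Atg4c (108 kb), Pik3c3 (82.5 kb) and Tfeb (55.4 kb), and the other 4 were Atg5, Atg2b, Rb1cc1 and Tax1bp1. Of the 22 tested genes up to 50 kb, 9 rose and 0 fell, with a median of 0.31, beside 24.5% that rose and 9.69% that fell among all 7699 such transcripts (median 0.15).

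RNA calls at 21 h divided likewise. Of 11 genes above 50 kb, 2 fell (18.2%) and 0 rose, with a median of -0.79. Among all 2360 such transcripts, 31.3% fell and only 1.82% rose (median -0.41). Of 22 genes up to 50 kb, 5 rose (22.7%) and 0 fell, with a median of 0.37, beside 14.9% that rose and 5.71% that fell among all 7035 (median 0.13). The relation of span and change therefore also ran through all transcripts. The shortest genes were Map1lc3a (1.71 kb), Gabarap (3.58 kb), Atg101 (6.65 kb), Map1lc3b (8.32 kb), Gabarapl1 (9.14 kb), Atg12 (9.31 kb), Atg4d (9.63 kb) and Sqstm1 (10.7 kb), of which Map1lc3b was not tested and Atg12 and Atg4d did not pass in footprints.

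**Figure D4:**
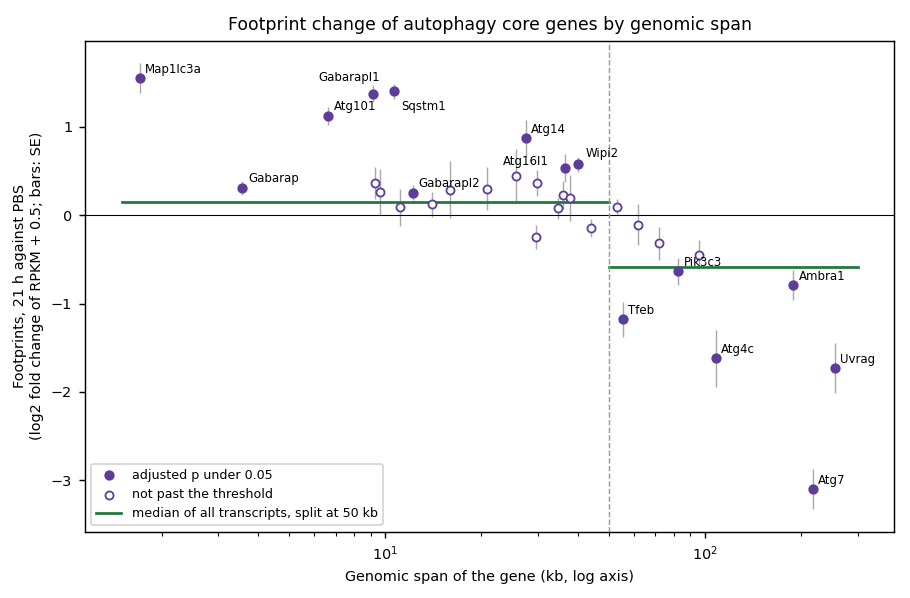
Footprint change at 21 h (log2 fold change of RPKM + 0.5, bars of 1 SE) against genomic span in kb (log axis) for the 32 tested autophagy core genes, with filled points for an adjusted p under 0.05, names for the called genes, and green lines for the median of all transcripts up to and above 50 kb (0.15 and -0.58). The 6 genes that fell lie right of the dashed line at 50 kb and the 9 that rose lie left of it.

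Among 59 further autophagy genes, 55 were tested for footprints at 21 h, with a median of 0.01. Of these, 12 rose (21.8%, beside 18.9% of all transcripts) and 13 fell (23.6%, beside 20.2% of all). The largest rises were in Trp53inp1, a p53 target that binds ATG8 proteins (1.15 ± 0.15, limma adjusted p = 0.000584), Sesn2, a stress-induced inhibitor of mTORC1 (1.11 ± 0.22, adjusted p = 0.00428), and Smcr8, a partner of C9orf72 (1.05 ± 0.20, adjusted p = 0.00389). The largest falls were in Atg10, the E2-like enzyme that passes ATG12 from ATG7 to ATG5, in Tbc1d5, a Rab GTPase regulator (-4.41 ± 0.20, adjusted p = 5.77e-06), and in Rptor, the mTORC1 subunit Raptor (-1.77 ± 0.23, adjusted p = 0.000613). Atg10 went from 52 and 19 footprint reads with PBS to 0 and 0 at 21 h, at least 8.41-fold lower against a floor of 3 reads per library, or 4.87-fold without PBS library 1. In RNA at 21 h, 52 of the 59 were tested, and 7 rose (13.5%, beside 11.6% of all) and 7 fell (13.5%, beside 12.2% of all). In TE at 21 h 1 of the 52 passed (1.92%, beside 0.409% of all transcripts). This was Tbc1d5, which was lower (-2.20 ± 0.34, limma adjusted p = 0.0313).

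Of 42 lysosomal genes, 41 were tested for footprints at 21 h, with a median of 0.02. Of these, 8 rose (19.5%, near the 18.9% of all transcripts) and 5 fell (12.2%, beside 20.2% of all). The largest rises were in 3 subunits of the proton pump that acidifies lysosomes, Atp6v0e (1.20 ± 0.15, limma adjusted p = 0.000485), Atp6v1f (0.91 ± 0.13, adjusted p = 0.000833) and Atp6v1b2 (0.74 ± 0.11, adjusted p = 0.00101). The largest falls were in Glb1, the lysosomal beta-galactosidase (-1.29 ± 0.22, adjusted p = 0.00240), Atp6v1h, a further pump subunit (-0.84 ± 0.10, adjusted p = 0.000406), and Scarb2, a receptor that carries glucocerebrosidase to lysosomes (-0.81 ± 0.12, adjusted p = 0.00132). In RNA at 21 h, 4 of 41 rose (9.76%, beside 11.6% of all) and 2 fell (4.88%, beside 12.2% of all). Pump subunits were thus found in both directions.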

How the data were processed

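Ribosome profiling and RNA-seq libraries of KPC cells were grouped by their labels. The full genotype of the line is not reported here. The deposited values are RPKM, 1 transcript per gene, which the authors computed separately for each library. Footprints were divided by coding length and RNA-seq reads by transcript length. The submitters' processing notes name cutadapt, STAR and GRCm39, without versions. Transcripts not listed in a library were set to 0. Multiplied by length, RPKM values were whole multiples of 1 read (tolerance 0.001), which gave read numbers. Floors (3 reads) and the exact interval of the Atg7 RNA fold cover counting error only. Intervals of TE differences come from the limma fit and rest on the spread between libraries.

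Within an assay, libraries were scaled with median-of-ratios factors. Transcripts with a mean of at least 1 RPKM were kept. The fit used limma 3.58.1 (R 4.3.3) on log2(RPKM + 0.5), with moderated variances that follow the mean level, all 3 groups of the assay together, two-sided tests and Benjamini-Hochberg adjustment over all transcripts. TE was the assay-by-treatment interaction over 12 libraries. An exact permutation test of 2 against 2 libraries could reach no two-sided p below 0.333. The test of 21 h against PBS was checked within each assay on simulated reads, with a single spread for all transcripts. TE and the other comparisons were not checked in this way. Genomic spans were matched by symbol for 99.1% of transcripts.

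The 35 genes, the lists and the span split were chosen with earlier results of these data known. Genes past the threshold in any comparison, ATG8 genes and cargo receptors are given by library, though not always for every group in both assays. Of other lists at most 3 rises and 3 falls are named. Alternatives were other pseudocounts (0.1 and 1), filters (none, or a mean of at least 5), scalings, fits and left-out libraries. Python 3.11.15, pandas 2.3.3, numpy 2.4.6 and matplotlib 3.10.9 were used.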

Additional observations from a re-analysis of the deposited data

Results flagged for a closer look

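The response of several autophagy core genes differed between the times of treatment, by the limma test of 21 h against 6 h itself (adjusted p under 0.05). So did that of many other transcripts. In footprints 25% of the tested genes rose and 9.38% fell, beside 15.0% and 15.7% of all transcripts. In RNA 15.2% rose and 9.09% fell, beside 7.53% and 8.21% of all. In footprints, log2 changes from 6 h to 21 h were 1.13 for Map1lc3a, 0.97 for Sqstm1, 0.74 for Gabarapl1, 0.73 for Atg101, 0.54 for Nbr1, 0.39 for Tax1bp1, 0.34 for Wipi2 and 0.31 for Gabarap, and -2.43 for Atg7, -1.33 for Tfeb and -1 for Atg4c. In RNA, they were 1.02 for Sqstm1, 0.99 for Nbr1, 0.68 for Gabarapl1, 0.66 for Atg101 and 0.62 for Tax1bp1, and -1.93 for Atg7, -1.29 for Atg4c and -1.11 for Tfeb.

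Several of these footprint calls and most of these RNA calls rested on single libraries, and those not named with each gene above follow here. Without 6 h library 1, 6 h library 2 or 21 h library 1, the Gabarap footprint change was 0.36, 0.25 or 0.28 (limma adjusted p = 0.0631, 0.163 and 0.0701). In RNA, Atg101 was at 0.56 without 6 h library 2 and 0.54 without 21 h library 2 (adjusted p = 0.104 and 0.131), and Atg7 at -1.74 without 6 h library 2 (adjusted p = 0.0502). RNA of Gabarapl1 was at 0.48 without 6 h library 2, 0.70 without 21 h library 1 and 0.67 without 21 h library 2 (adjusted p = 0.122, 0.0815 and 0.0987). RNA of Atg4c was at -1.41 to -1.18 with any 1 of the 6 h and 21 h libraries left out (adjusted p = 0.0587 to 0.0959). With 2 libraries per group, no single library could be tested for lying apart from its group.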

How the results depend on the processing

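No change past the threshold reversed under any alternative, though the TE difference of Atg7, which was not called, turned sign as given above. Of 44 changes of autophagy core genes past the threshold, 22 kept their call under every alternative run, among them Sqstm1, Gabarapl1, Atg101, Atg7, Map1lc3a, Tfeb, Uvrag, Atg4c and Wipi2 in footprints at 21 h. Of the changes kept, those of Uvrag and Atg4c in footprints and Atg7 in RNA at 21 h were not tested with a mean RPKM of at least 5. The 6 h footprint calls (2 higher, 1 lower) were the least stable. They became 1 higher with a pseudocount of 0.1, 0 higher and 0 lower with no filter, and 0 and 0 without the variance trend, while 2 were lower with only the groups compared and 5 lower with voom. RNA at 6 h went from 0 and 0 to 1 higher and 1 lower with voom, which called 0.604% of all transcripts higher and 1.82% lower. RNA at 21 h had 2 lower, 0 with a mean RPKM of at least 5 and 6 with voom. From 6 h to 21 h, footprints had 8 higher and 5 without the trend, and RNA had 5 higher and 2 without the trend, and 3 lower, 1 with no filter and 0 with a mean of at least 5. The cause of these moves was not tested, apart from the stricter filter, under which fewer genes are tested. Shares over all transcripts under the other alternatives are not given here, so the counts in this section describe only how stable the calls were. The median footprint change at 21 h above the span split went from -0.71 to -1.68 with a split at 100 kb, which left 4 genes above it. Over all transcripts it went from -0.58 to -1.08. Of the 28 genes up to 100 kb, 9 rose (32.1%, beside 21.0% of all such transcripts) and 2 fell (7.14%, beside 13.6%). The division into rises below the split and falls above it was therefore not complete at 100 kb.

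With each library left out in turn, footprints had 0 to 2 higher and 0 to 1 lower at 6 h, 6 to 8 higher and 5 to 7 lower at 21 h, and 4 to 8 higher and 2 to 3 lower from 6 h to 21 h. RNA had 4 to 5 higher and 1 to 4 lower at 21 h and 2 to 5 higher and 1 to 2 lower from 6 h to 21 h. RNA at 6 h and TE had 0 throughout. A lone library was assumed to vary like the other groups.

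The correlations of replicate differences between groups were -0.04 to 0.03, so no effect shared by replicate number was seen. This cannot show that the libraries were unpaired. The study's methods do not say which footprint and RNA-seq libraries shared a dish, and the main fits took all libraries as independent. With the replicate number as a block, footprints at 6 h had 0 higher and 0 lower, and footprints at 21 h had 8 higher (without Gabarapl2) and 6 lower, and the block changed no other call.

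Leaving out the scaling moved the median of all transcripts by more than 0.1 on the log2 scale in RNA from 6 h to 21 h, from 0.01 to 0.15. RNA of Atg7, Atg4c, Tfeb, Uvrag and Map1lc3a rested on few reads, which limits their precision.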
